A study of Mus musculus with 2 samples.

Results

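The genes described here are 9 that serve the assembly of the T cell receptor and the reading of its ligands in developing thymocytes: Rag1, Rag2, Dntt, Ptcra, Cd8a, Cd8b1, Cd4, Cd24a and Cd1d1. They were chosen by name. The array carried 17 probes whose gene name equals 1 of these symbols, and none was found under an older symbol. Of the 9 genes, 8 gave a measurable signal, among 9397 genes measured in all, and Rag2 did not. The study compared thymus RNA of Pla2g10-Tg/+ mice, described by the labels as overexpressing Pla2g10, the gene of group X secreted phospholipase A2, with thymus RNA of littermate controls that lack it. All mice were 6 months old and on the C57BL/6 background. Each genotype is represented by 1 pool of RNA from 4 mice, and both pools were hybridised together on 2 Agilent arrays with exchanged dyes, with the transgenic pool red (Cy5) on array 1 and green (Cy3) on array 2. The labels name neither the promoter nor the cell type that drives the transgene.

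T cell receptor genes are cut and rejoined by the recombinase made of the RAG1 and RAG2 proteins. Terminal deoxynucleotidyl transferase, the product of Dntt, adds bases at the joins. Ptcra encodes the pre-T alpha chain, which pairs with a newly made beta chain and carries early thymocytes past their first checkpoint. Cells then express both co-receptors, CD4 and the CD8 alpha and beta chains, as double-positive thymocytes of the cortex, in which Rag1, Rag2, Dntt and Cd1d1 are active. Positive selection ends rearrangement, leaves 1 co-receptor, and is followed by loss of the heat-stable antigen encoded by Cd24a. CD1d presents lipids, and CD1d on double-positive thymocytes selects natural killer T cells.

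In the transgenic pool Cd8a, Dntt, Rag1 and Ptcra were lower on both arrays, Cd8b1 and Cd24a were below 0 on both without passing the threshold on each, and Cd4 and Cd1d1 lay near 0. Their log2 ratios (transgenic over control, averaged over the arrays and given ± the SD of the 2 values) ran from -0.51 ± 0.00073 for Cd8a to 0.03 ± 0.03 for Cd1d1. The threshold used was a log2 ratio of at least 0.25 in size (1.19-fold) with the same sign on each array. By it 4 of the 8 measured genes were lower and 0 higher, against 1.31% of all measured genes lower and 1.68% higher. Among the 2477 measured genes with a mean log2 intensity of at least 8, 2.87% were lower, and 3 of the 6 members that bright were. The median over the 8 genes was -0.31, against -0.0023 over all measured genes. No member differed 2-fold. Each genotype being 1 pool, the SD is technical, the spread between animals is not covered, and no p-value is given. In whole-organ RNA, fewer cells of a type and less RNA per cell cannot be told apart.

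The same threshold applied to the dyes, red over green on both arrays, gave 0.234% of genes, and green over red gave 0.309%. The median SD between arrays was 0.09 over all measured genes, and those of the 8 members ran from 0.00073 (Cd8a) to 0.20 (Dntt). The thymus identity of the RNA was visible in both pools: all 12 listed genes of the T cell receptor complex and 13 of 16 thymic epithelial markers were measured, Foxn1, Cldn3 and Dll4 being well above background in no channel. The transgene itself could not be followed, since none of the 4 channels of its 1 probe rose well above background.

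**Figure D1:**
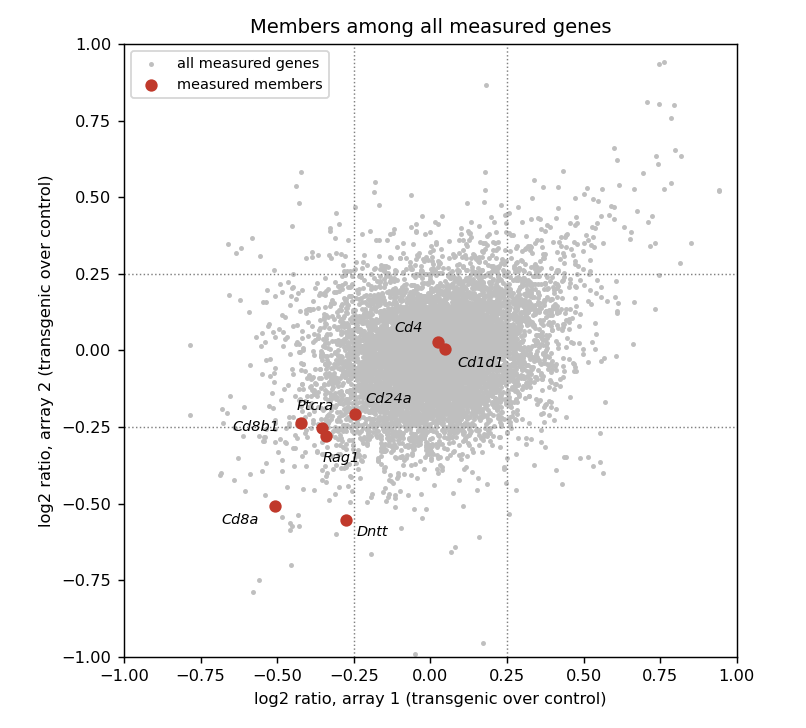
Each point is a measured gene, with its log2 ratio of transgenic over control on array 1 (x axis) and array 2 (y axis), red for the 8 measured members and grey for all 9397; dotted lines mark 0.25 in either direction, and 5 genes lie outside the axes. Cd8a, Dntt, Rag1 and Ptcra sit in the lower left corner, Cd8b1 and Cd24a at its edge, and Cd4 and Cd1d1 near the origin.

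The promoters shown here are those of the 4 genes that passed the threshold as lower on both arrays. With 1 pair of pools, passing it does not show that they changed together. With an offset of 0, Rag1 and Dntt did not pass, while Cd8b1 did. The sequences are the 250 bases before the transcription start, from RefSeq on GRCm38.p6, in which 5 of the 9 genes had an entry (Rag2 was the other). Capitals mark E-boxes (CANNTG), the letters bound by E proteins such as those of Tcf3 and Tcf12.
Rag1, chr2:101649533-101649782, minus strand: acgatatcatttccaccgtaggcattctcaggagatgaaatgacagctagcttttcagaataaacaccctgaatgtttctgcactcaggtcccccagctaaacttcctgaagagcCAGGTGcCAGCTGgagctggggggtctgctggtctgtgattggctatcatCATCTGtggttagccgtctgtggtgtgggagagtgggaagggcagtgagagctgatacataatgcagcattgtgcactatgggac
Dntt, chr19:41029025-41029274, plus strand: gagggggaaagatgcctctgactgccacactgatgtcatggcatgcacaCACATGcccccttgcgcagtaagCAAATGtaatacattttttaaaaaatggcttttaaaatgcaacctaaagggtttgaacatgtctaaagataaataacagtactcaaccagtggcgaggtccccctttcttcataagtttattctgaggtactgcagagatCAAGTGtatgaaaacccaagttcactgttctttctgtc
Ptcra, chr17:46763713-46763962, minus strand: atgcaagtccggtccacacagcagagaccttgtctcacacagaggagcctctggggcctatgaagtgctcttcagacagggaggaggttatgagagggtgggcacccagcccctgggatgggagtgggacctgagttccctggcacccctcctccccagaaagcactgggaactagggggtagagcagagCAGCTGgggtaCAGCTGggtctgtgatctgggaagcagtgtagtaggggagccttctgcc
Cd8a, chr6:71373177-71373426, plus strand: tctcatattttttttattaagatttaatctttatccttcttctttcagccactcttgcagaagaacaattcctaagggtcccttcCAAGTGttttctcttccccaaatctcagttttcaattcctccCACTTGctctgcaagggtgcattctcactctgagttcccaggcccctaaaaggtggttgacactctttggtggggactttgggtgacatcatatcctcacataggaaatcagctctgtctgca

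An E-box was present in each of these windows, as in 66.0% of 27025 promoters of the same length, so its presence is common. The Ptcra window held the E-box form CAGCTG at 2 positions, -60 and -49 from the start site, and the Rag1 window held it once, at -128. That form was found in 12.8% of all promoters and in neither the Dntt nor the Cd8a window. The Rag1 window also held the E-box form CAGGTG (or CACCTG) once, at -135, as 17.1% of promoters did, and the RUNX letters TGTGGT (or ACCACA) at -81 and -67, as 14.2% did. The first of these overlaps the E-box at -85. The GATA letters AGATAA (or TTATCT), found in 10.2% of promoters, occurred once in the Dntt window. The glucocorticoid half-site letters AGAACA (or TGTTCT), found in 16.2%, occurred once each in the Dntt and Cd8a windows. The TATA box TATAAA (or TTTATA) was in 13.0% of promoters and the TCF letters CTTTGA (or TCAAAG) in 14.1%, and neither was in the 4 windows. All of these motifs were searched on both strands, and a match is a description of the letters.

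The recombination genes came first in the order of maturation. Rag1 encodes the subunit of the recombinase that cuts DNA. Its brightest probe (A_51_P232411, mm8 chromosome 2, 101439495 to 101439554) gave normalised signals of 3072 and 2664 in the transgenic pool on arrays 1 and 2, and 3888 and 3237 in the control pool. Each array therefore had the transgenic channel below the control channel beside it, and the log2 ratios were -0.34 and -0.28 (mean -0.31 ± 0.04). The change was -19.4%, and both transgenic values lay below both control values. Here and for the genes below, such a separation rests on 2 technical values per genotype. Its share over all measured genes was not counted, so it is a description of the signals only. Over all measured genes, 29.1% were below 0 on both arrays, which is a looser condition. Here and below, normalised signals include an offset of 50 units added to each channel.

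Rag1 had 2 further probes, and they did not all give the same picture. A_52_P646895, 5.86 kb away on the same chromosome, read -0.26 on array 1 and -0.44 on array 2. A_51_P232416, only 165 bases from the brightest probe, read -0.50 on array 1 but 0.03 on array 2, where its channels were 2779 (transgenic) and 2728 (control). The means of the 3 probes ran from -0.24 to -0.35. With their average in place of the brightest probe, Rag1 read -0.37 and -0.23 and no longer passed on array 2.

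Rag2, the partner subunit, lies beside Rag1, its probe 6.37 kb away. None of the 4 channels was well above background for that probe (A_52_P259521, mm8 chromosome 2, 101433127 to 101433186). Its signals above local background were 21.9 and 16.4 units in the transgenic pool and 20.4 and 17.3 in the control pool. The recombinase was thus followed through Rag1 alone, and no ratio is given for Rag2.

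The brightest Dntt probe was A_51_P516085 (mm8 chromosome 19, 41112757 to 41112816). The transgenic pool gave 7282 and 6888 units on arrays 1 and 2, and the control pool 8823 and 10106. Both transgenic values lay below both control values, and the log2 ratios were -0.28 and -0.55 (mean -0.41 ± 0.20). The control pool was 1.33-fold the transgenic pool on this scale.

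The other Dntt probes had the same sign. A_52_P601437, 175 bases away, read -0.43 and -0.39 (mean -0.41 ± 0.03), with transgenic signals of 1852 and 1805 against 2499 and 2362 in the control. A_52_P169420 is listed under the transcript variant 2 accession NM_001043228 and spans 1570 bases on the genome, where the other 2 probes span 60. It read -0.58 and -0.20 (mean -0.39 ± 0.27). The means of the 3 probes thus lay between -0.41 and -0.39, while single arrays differed by more.

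Ptcra was dim, with 1 probe (A_51_P243575, mm8 chromosome 17, 46219187 to 46219247). Normalised signals were 119 and 135 in the transgenic pool and 151 and 161 in the control pool, so the genotypes did not overlap. The log2 ratios were -0.35 and -0.25 (mean -0.30 ± 0.07). At this signal the offset shrinks the ratio: with an offset of 0 Ptcra read -0.58 and -0.39 (mean -0.48), while the log ratios of the scanner software gave -0.64 and -0.40 (mean -0.52). The difference between Rag1 and Ptcra was -0.0067 ± 0.03 on the reported scale and 0.18 with an offset of 0, and the difference between Rag1 and Dntt was 0.10 ± 0.24.

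**Figure D2:**
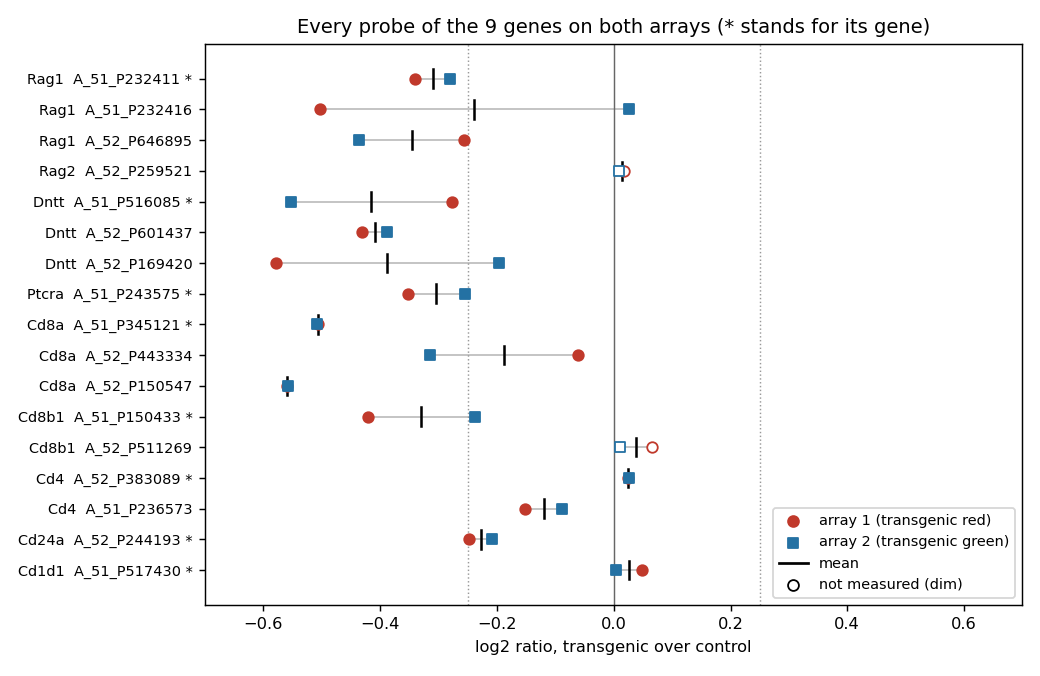
Log2 ratio of transgenic over control (x axis) for each of the 17 probes (rows), with array 1 as a circle, array 2 as a square and the mean as a black bar; open symbols are the 2 probes that were not measured, dotted lines mark 0.25, and an asterisk marks the probe that stands for its gene. Of the 15 measured probes 12 lie below 0 on both arrays, 1 of them a Cd4 probe measured through the control pool alone. Of the others, 1 Rag1 probe reaches 0.03 on array 2, and the 2 Cd4 probes lie on opposite sides of 0.

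Over all members, 7 of 15 measured probes were lower by the threshold and 0 higher, where 1.21% of all measured probes were lower. Probes of 1 gene share their transcript and are not replicates of a condition.

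Of the co-receptor genes, Cd8a was lower, Cd8b1 was just short of the threshold, and the 2 faint probes of Cd4 had opposite signs. Cd8a encodes the CD8 alpha chain, which all CD8 molecules contain. Its brightest probe (A_51_P345121, mm8 chromosome 6, 71306845 to 71306904) gave 1584 and 1738 units in the transgenic pool and 2250 and 2472 in the control pool. The log2 ratio was -0.51 on both arrays (SD 0.00073), a change of -29.6%, and the genotypes did not overlap. So small an SD belongs to this processing, as it was 0.07 with an offset of 0 and 0.08 with the scanner software's ratios. Of the 9397 measured genes, 15, or 0.160%, had a mean log2 ratio this low or lower, Cd8a included.

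Of the other Cd8a probes, A_52_P150547, 3.44 kb away, read -0.56 on both arrays, with transgenic signals of 227 and 225 against 334 and 332. A_52_P443334, 1.58 kb away on the other side, read -0.06 and -0.32 (mean -0.19 ± 0.18) and did not pass. It is listed under another cDNA clone, AK088414, than the other 2 probes (AK088128). With the average of the 3 probes Cd8a read -0.42 ± 0.06.

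Cd8b1, the gene of the CD8 beta chain that marks conventional CD8 thymocytes, lies beside Cd8a, and its probe (A_51_P150433, mm8 chromosome 6, 71266583 to 71266641) is 40.3 kb from that of Cd8a. Its transgenic signals were 7311 and 7845 and its control signals 9786 and 9253. The genotypes did not overlap, but array 2 read -0.24, just short of the threshold, beside -0.42 on array 1 (mean -0.33 ± 0.13). Both arrays passed with an offset of 0 (-0.26 and -0.37) and with the scanner software's log ratios (-0.35 and -0.40). The difference between Cd8a and Cd8b1 was -0.09 on array 1 and -0.27 on array 2 (mean -0.18 ± 0.13). The second Cd8b1 probe, A_52_P511269, is placed by the array design on chromosome 5 (mm8, 115404420 to 115404479) and was well above background in only the red channel of each array. It was not measured, and read 0.06 and 0.01.

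Cd4 encodes the co-receptor for MHC class II. Its brighter probe (A_52_P383089, mm8 chromosome 6, 124833307 to 124833366) gave normalised signals of 80.4 and 80.5 in the transgenic pool and 79.1 and 79.1 in the control pool, of which 50 is the offset. The genotypes differed by about 1 unit, and the log2 ratios were 0.02 and 0.03. Its signals above local background were 37.3 and 25.4 (transgenic) and 29.5 and 32.5 (control), so for a gene known to be abundant in thymocytes this probe was faint.

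The second Cd4 probe gave the opposite sign. A_51_P236573, 2.31 kb away, was well above background in the control channels on both arrays and in neither transgenic channel, and it read -0.15 and -0.09 (mean -0.12 ± 0.04). This probe passed the filter through the control pool alone, which favours a ratio below 0, so its sign is no support for a difference. With an offset of 0 it read -0.47 and -0.37, and the scanner software gave -0.60 and -0.65. The near-zero Cd4 value therefore rests on 1 of 2 faint probes.

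On the brightest probes, Cd8a lay below Cd4 by 0.53 on each array (mean difference -0.53 ± 0.0023), and Cd8b1 below Cd4 by 0.44 and 0.26 (mean difference -0.35 ± 0.13). The SD of 0.0023 belongs to this processing: in the scanner software's ratios the SD was 0.08 for Cd8a and 0.12 for Cd4. With the average of the Cd4 probes and of the Cd8a probes the difference between Cd8a and Cd4 was -0.37. It was not seen on the other Cd4 probe in the scanner software's ratios, where that probe read -0.60 and -0.65 and Cd8a -0.47 and -0.59. With median centring single arrays did not keep it either, as array 1 read 0.32 for Cd8a and 0.18 for Cd4, and array 2 -1.45 and -0.14. These 3 co-receptor values compare ratios, each within its own probe, and not levels between genes.

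Among the surface markers of maturation, Cd24a (A_52_P244193, mm8 chromosome 10, 43272315 to 43272374) gave 425 and 431 units in the transgenic pool and 504 and 497 in the control pool. Both arrays had the transgenic channel lower, by similar amounts, with log2 ratios of -0.25 and -0.21 (mean -0.23 ± 0.03), a change of -14.6% that was just short of the threshold on both. A probe for a predicted Cd24-like gene, A_52_P335218, which the RefSeq table names Gm6212 and which may share sequence with Cd24a, read -0.17 and -0.24. Cd24a lay below Cd4 by 0.27 and 0.23 on the 2 arrays.

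Cd24a is also known from red cells and neutrophils. Of 4 measured erythroid markers the globin genes Hbb-bt (1.18 ± 0.27) and Hba-a1 (0.85 ± 0.13) passed as higher, while Alas2 read 0.32 ± 0.10 and Tfrc -0.05 ± 0.03, with summed signals of 5154 and 5855 against 2781 and 2547. Of 6 measured neutrophil markers 3 passed as higher, S100a9 (0.62 ± 0.0082), Chil3 (0.38 ± 0.02) and Camp (0.34 ± 0.04), with sums of 1659 and 1516 against 1180 and 1109. Of the 12 erythroid markers 7 were in no channel, Klf1 and Gata1 among them, and of the 11 neutrophil markers 4 (Ngp, Elane, Lcn2 and Retnlg). The 7 include Hbb-b1, but a name left without probes after naming through RefSeq also counts here, and 4 probes were measured as Hbb-bt. The part of red cells and neutrophils in the Cd24a value was not tested.

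Cd1d1 (A_51_P517430, mm8 chromosome 3, 87081796 to 87081855) gave 397 and 386 units in the transgenic pool and 384 and 385 in the control pool. The channels differed by little on either array, and the log2 ratios were 0.05 and 0.0041 (mean 0.03 ± 0.03). No channel of the probe for Cd1d2, its close copy, was well above background. Cd1d1 differed from Cd4 by 0.02 and -0.02, and both lay above the 4 genes that were lower. CD1d is also carried by dendritic cells and macrophages, whose 13 measured markers, from C1qb (-0.18 ± 0.15) to H2-Eb1 (0.30 ± 0.26), passed in neither direction, with summed signals of 2997 and 3215 (transgenic) against 2824 and 2665 (control). Of that list Itgax, Clec9a, Siglech and Flt3 were in no channel, and its part in the Cd1d1 value was not tested.

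**Figure D3:**
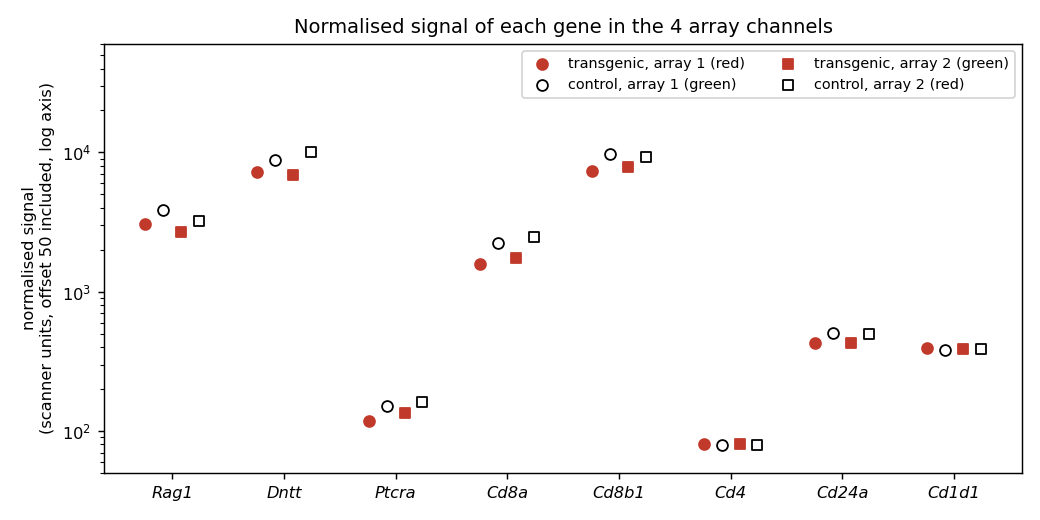
Normalised signal (log axis, scanner units with the offset of 50 included) of the probe that stands for each of the 8 measured genes, with the transgenic pool filled and the control pool open, array 1 as circles and array 2 as squares. In Rag1, Dntt, Ptcra, Cd8a, Cd8b1 and Cd24a the transgenic symbol lies below the control symbol on both arrays, while for Cd4 and Cd1d1 the 4 symbols nearly coincide; heights are not comparable between genes.

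By stage of maturation, the members were set beside lists of other genes, described by counts and medians. Double-positive markers other than the members were lower in 6 of 19 measured genes and higher in 0, with a median of -0.24. Among them were Ets2 (-0.53 ± 0.15) and Ccr9 (-0.53 ± 0.10), which binds CCL25 made by thymic epithelium. Arpp21 read -0.37 ± 0.10, but 1 of its 3 probes read 0.45. Glcci1 (-0.34 ± 0.05) and the aquaporin gene Aqp11 (-0.34 ± 0.11) also passed, and Slc7a11 was highest at 0.19 ± 0.12. All 8 measured members lay within the range of these 19 genes, from -0.53 to 0.19. Cd24a, Cd4 and Cd1d1 lay above their median, and the other measured members below it.

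Genes of earlier stages did not share this direction. Of 8 measured early progenitor and double-negative genes, 7 were above 0 and the median was 0.10, with Notch3 highest at 0.24 ± 0.03. Gfi1, a repressor also active in later thymocytes, was the 1 that passed, at -0.33 ± 0.07. Ptcra, which is switched on at the same double-negative stage, was lower. Hes1, Erg, Hhex and Lmo2 were in no channel.

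Genes of mature single-positive cells were higher in 4 of 19 measured genes and lower in 1, with a median of 0.08. Of the 19, 14 were above 0 and 5 below. The summed signal of the list went the other way, with 13760 and 13791 units in the transgenic pool against 15299 and 14029 in the control pool. Ms4a4b (0.67 ± 0.17), Ccr7 (0.45 ± 0.15), the homing receptor for the medulla, the integrin gene Itgb7 (0.38 ± 0.06) and Emb (0.27 ± 0.01) passed as higher. The other Emb probe read 0.08, and the 4 Ms4a4b probes ran from 0.25 to 0.67. Klf2, a factor of thymic exit, passed as lower at -0.54 ± 0.20 on its brightest probe, while its other probe read 0.59. Cd5, which rises with receptor signal, read -0.23 ± 0.11, on the side of Cd24a.

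Genes that all T-lineage cells express gave a median of -0.08, and 1 of 12 passed, Thy1 at -0.34 ± 0.09. Of the CD3 chains, Cd3e and Cd3d were at -0.01 ± 0.10 and 0.03 ± 0.03, and Cd3g was at -0.14 ± 0.03. Cd247 read -0.16 ± 0.04 on its brightest probe, with another of its 3 probes at 0.29. Trat1 was highest at 0.11 ± 0.13, while its other probe read -0.28. The summed signal of the 12 genes, in which the brightest probes weigh most, was 13972 and 14633 units in the transgenic pool. It was 16305 and 16341 in the control pool. Cd8a and Dntt lay below all 12 on the mean of both arrays.

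**Figure D4:**
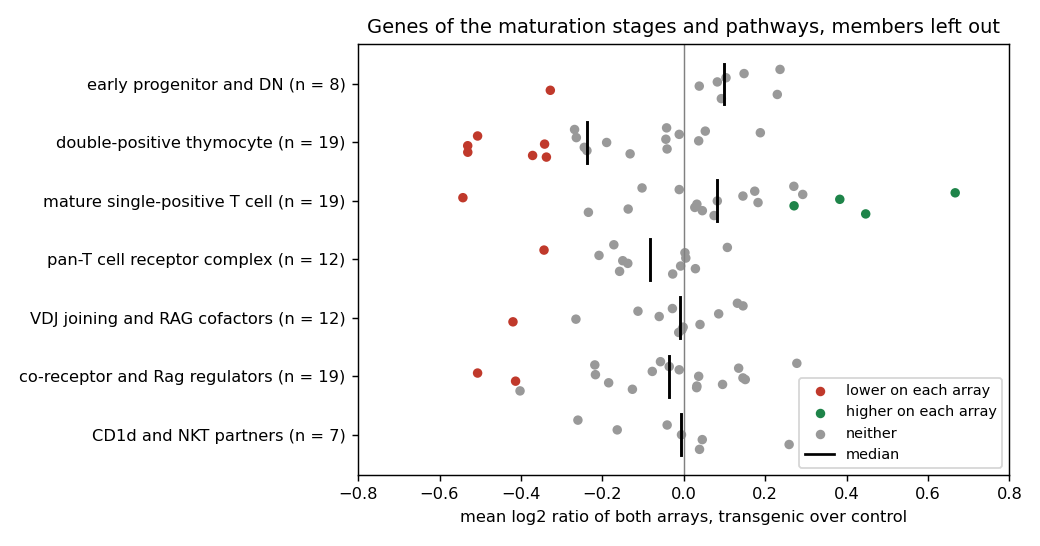
Mean log2 ratio of both arrays (x axis) for each measured gene of 7 lists (rows), without the 9 members, coloured red where lower and green where higher by at least 0.25 on each array, with the list's median as a black bar. Double-positive genes lie mostly below 0 (median -0.24), and early progenitor (0.10) and mature (0.08) genes mostly above it.

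The partners of the members within their own pathways mostly lay near 0. Of 12 measured genes for V(D)J end joining and RAG cofactors, 1 was lower and 0 higher, with a median of -0.0085. The 1 was Kpna2 (-0.42 ± 0.20), an importin known to bind RAG1. DNA ligase IV (Lig4) read -0.26 ± 0.17, and the Ku genes Xrcc5 and Xrcc6 read 0.15 ± 0.06 and 0.13 ± 0.16. On the mean of both arrays, Rag1 and Dntt had lower ratios than 11 of these 12 genes. Single arrays did not all keep this order, as on array 2 Lig4 read -0.38 and Rag1 -0.28. Poll was not measured, and Atm was in no channel.

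Of 19 measured regulators of the Rag and co-receptor genes, 2 were lower and 0 higher, with a median of -0.04. Id3, an inhibitor of E proteins, was among the lower ones at -0.41 ± 0.18. Bcl11b read -0.40 ± 0.36, with -0.66 on array 1 and -0.15 on array 2, and its other probe read -0.08. The E protein genes Tcf3 and Tcf12 read -0.04 ± 0.03 and 0.13 ± 0.32. Tox was highest at 0.28 ± 0.35, with its other probe at 0.02. Zbtb7b, the factor of CD4 commitment, was in no channel, and Runx3, that of CD8 commitment, was not measured.

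Of 7 measured CD1d and natural killer T cell partners, none passed in either direction, and the median was -0.0056. The lowest was Slamf6 at -0.26 ± 0.17, whose other probe read 0.22. The signalling kinase gene Fyn read 0.04 ± 0.05, close to Cd1d1 at 0.03 ± 0.03.

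Rag1 and Dntt are also active in B cell precursors. Of 12 B cell markers 2 were measured, Blnk higher at 0.34 ± 0.11, with summed signals of 359 and 336 in the transgenic pool and 296 and 297 in the control pool. Of the rest, 9 were in no channel of either pool, Cd79a, Ms4a1, Pax5 and Igll1 among them.

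Some markers of other cell types passed as higher in the transgenic pool on the same arrays. Of 7 measured adipocyte markers, Cfd, Car3, Cidea and Cidec were well above background in only the 2 transgenic channels and so were measured through that pool alone. Of the other 3, Fabp4 (0.78 ± 0.04) and Lpl (0.38 ± 0.03) passed as higher, and Pparg read 0.05 ± 0.18. Plin1, Lep, Retn and Cd36 were in no channel. Thymic epithelial markers passed in 2 of 13, Ccl21a (0.95 ± 0.08) and Krt5 (0.68 ± 0.10), with sums of 23403 and 23574 against 22054 and 20071. Fibroblast markers passed in 2 of 8, Mgp (0.52 ± 0.19) and Dcn (0.52 ± 0.04), with sums of 1430 and 1338 against 1139 and 1171, and Pdgfra was in no channel. Their part in the lower values of Cd8a, Dntt, Rag1 and Ptcra was not tested.

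Without a correction of dye bias along intensity no member passed. With median centring in place of loess the count of lower members was 0, as array 1 read 0.32 for Cd8a and 0.58 for Rag1 and array 2 read -1.45 and -1.27. The red channel was thus the higher one for these genes on both arrays. A shift of that kind cancels in the mean of arrays with exchanged dyes, which was -0.57 for Cd8a, -0.45 for Dntt, -0.34 for Rag1, -0.35 for Ptcra and 0.02 for Cd4.

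**Figure D5:**
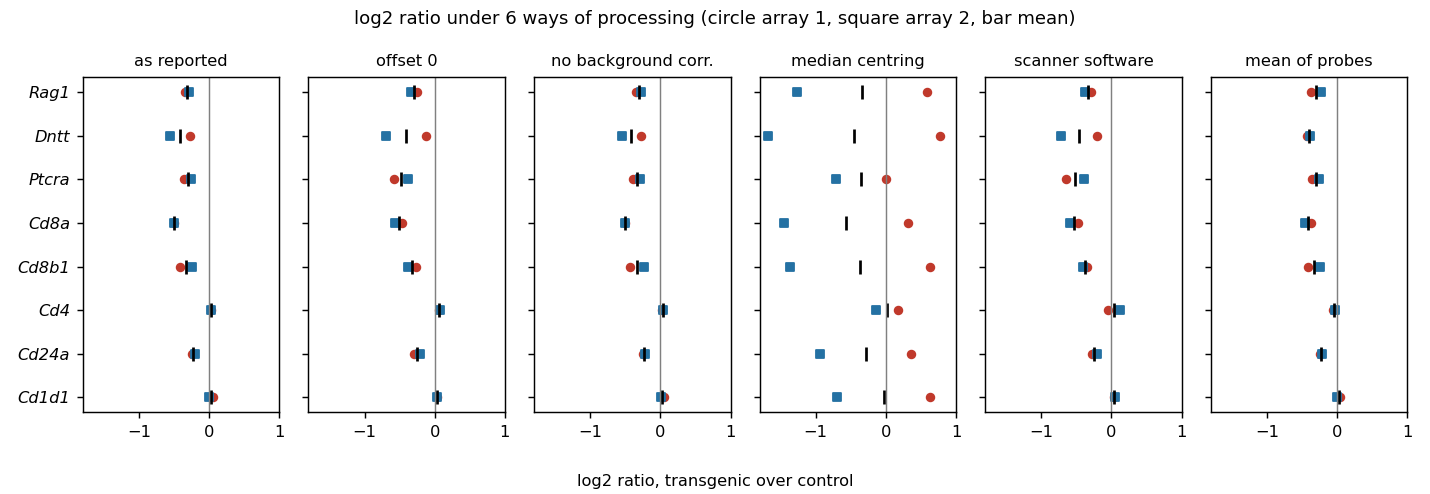
Log2 ratio of transgenic over control (x axis) of the 8 measured genes (rows) under 6 ways of processing (panels), with array 1 as a circle, array 2 as a square and the mean as a bar. The means of Rag1, Dntt, Ptcra, Cd8a, Cd8b1 and Cd24a lie below 0 in every panel, while under median centring the arrays separate by dye.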

How the data were processed

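Thymus RNA of 1 transgenic and 1 control pool (4 mice each, 500 ng labelled, per the labels) was read on 2 dye-swapped arrays of 41174 probes. The scanner files hold linear spot and local background intensity, deposited uncorrected; the file headers name Feature Extraction 9.5.1.1. The deposited LogRatio is a log10 of red over green processed intensity, per the file headers, and the deposited series table holds the same log10 ratio without zeros at dim spots, within 5e-10 of the processed signals.

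Mean intensities were corrected by normexp (offset 50) and loess within arrays in limma 3.58.1 (R 4.3.3), control and outlier spots having weight 0; outlier spots were then left out. Array 2 was turned, so every ratio reads transgenic over control. Channel signals were scaled by Aquantile. Summed signals of a list add 1 probe per measured gene, offset included, so they follow its brightest probes and not its typical gene. The arrays were taken as a technical dye swap, since the labels do not say that they hold separate pools. A probe counted as measured where either genotype was well above background on each of the 2 arrays (12235 probes); such a filter can pass a gene through 1 genotype. The brightest probe stood for a gene, named through RefSeq (GRCm38.p6) by accession for 23374 probes, symbol for 6733 and synonym for 2919, while 8148 kept the design's name. Probe positions are mm8; no mm8 annotation was used, so exons and UTRs are not given. Members, lists and thresholds were chosen with earlier results of these data known. Named genes were all members, up to 6 passing genes per list, and each list's highest and lowest; other genes were named after their values were seen. Some genes of the lists are not reported here. The procedure was tested on simulated data. The number of arrays limits the precision.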

Additional observations from a re-analysis of the deposited data

How the results depend on the processing

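Over the 9 alternatives run for each member, Rag1, Dntt, Ptcra, Cd8a, Cd8b1 and Cd24a kept their sign in all, from -0.57 to -0.42 for Cd8a, -0.55 to -0.28 for Dntt, -0.34 to -0.28 for Rag1 and -0.52 to -0.25 for Ptcra. Cd4 and Cd1d1 kept it in 8 of 9 each. Not all 9 could change a sign. Leaving out an array could not, since each member had the same sign on both. Dropping the filter on dim probes left every member's value as it was, and the series table repeated the software's ratios. The mean of all probes could not change members with 1 measured probe. The count of lower members was 4, between 4 and 5 on 1 array alone, 3 with an offset of 0 or with the mean of all probes, and 0 with median centring, where single arrays follow the dyes. With an offset of 0 Cd8b1 passed while Dntt (-0.12 on array 1) and Rag1 did not, and with the software's ratios or the series table Cd8b1 passed while Dntt (-0.20 on array 1) did not. The members' median of -0.31 was -0.35 with the software's ratios (series table the same), and -0.31 and -0.25 without replicate 2 and without replicate 1. The difference between Cd8a and Cd4 was -0.58 with an offset of 0, -0.54 without background correction, -0.58 with median centring, -0.57 with the software's ratios (series table the same) and -0.37 with the mean of all probes. Between Rag1 and Ptcra it was 0.18, 0.026 without background correction and 0.19 with the software's ratios (series table the same). Between Cd24a and Cd4 it was -0.32 with an offset of 0, -0.31 with median centring, -0.28 with the software's ratios (series table the same) and -0.18 with the mean of all probes. Between Cd1d1 and Cd4 it was -0.032, -0.052 and 0.074 under an offset of 0, median centring and the mean of all probes. The 123 genes lower and 158 higher over all genes became 390 and 547 with an offset of 0, 477 and 654 with the software's ratios (series table the same), 4 and 14 with median centring, 483 and 404 without replicate 1 and 676 and 862 without replicate 2, counts added after seeing the data. The causes of these moves were not tested. Faint signal limits Cd4, Ptcra and Rag2.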

Other observations

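Genes next to the members in the RefSeq order, looked up after the members' values were seen, did not follow them as a group. Iftap, adjacent to Rag2, was higher at 0.33 ± 0.11 (0.41 and 0.25 on arrays 1 and 2), opposite in sign to Rag1, and Traf6 on the far side read 0.07 ± 0.04. Beside the Cd8 pair, Rmnd5a read -0.26 ± 0.22 on its brightest probe, with another of its 4 probes at 0.27, and Krcc1 read -0.03 ± 0.01. Gpr162 next to Cd4 was at -0.19 ± 0.02, lower than the brighter Cd4 probe at 0.02. Blnk, the nearest measured gene on 1 side of Dntt, was higher at 0.34 ± 0.11. Mtres1 beside Cd24a read 0.22 ± 0.06, and Cnpy3 beside Ptcra -0.03 ± 0.0038.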
